A study of Mus musculus with 90 samples.

Results

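The genes of cholesterol synthesis and its control by the sterol regulatory element-binding protein SREBP2 were followed as a group of 27 genes, out of 24312 gene symbols in the table of the series. The genes were listed by symbol, and where a symbol had several RefSeq IDs the one read most strongly on average across all 54 libraries stood for it. RNA was sequenced from the livers of single mice held on night-restricted feeding (NRF, food in the dark phase alone) to ask how a meal, glucocorticoids and insulin act on liver transcription, and each library comes from its own mouse. Wild-type C57BL/6 mice, which the methods give as C57BL/6N males of 10 weeks on chow, were taken at zeitgeber time (ZT) 10, at ZT14 without food (ZT14-unfed), or at ZT14 after food was given at ZT12 (ZT14-fed), with 2 mice per group. Wild-type mice of the same strain and age received vehicle (PBS), the glucocorticoid dexamethasone (dex, 1 mg/kg), the insulin receptor antagonist S961, or both, 30 minutes before ZT12. They were taken at ZT14, fed in all of these groups and unfed in a further vehicle group, with 4 mice per group. The labels give S961 as 44 nM per mouse, the study's methods give the amount per kilogram, and the characteristics of some replicates carry serial names in place of S961, whose titles all say S961. Adult Nr3c1 fl/fl mice, which carry a floxed glucocorticoid receptor (GR), received an adeno-associated virus with GFP (AAV-GFP) or CRE (AAV-CRE, L-GRKO) under the liver-specific Tbg promoter, on a C57BL/6N background, and were taken unfed at ZT14, with 4 mice per group. Irs1 fl/fl, Irs2 fl/fl mice without Cre (control) or with Alb-Cre, which acts in cells that express albumin (L-IRSdKO), were on a C57BL/6J background and 10 weeks old, and both groups were injected with 1 mg/kg dex and fed before ZT14, with 4 mice per group. Wild-type C57BL/6 mice were given a high-fat diet (diet-induced obese, DIO) or chow (lean) for 10 weeks from 5 weeks of age and were then held on NRF for 4 days and taken unfed or fed at ZT14, with 3 mice per group.

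Cells make cholesterol from acetyl-CoA through the mevalonate arm, which ends in farnesyl diphosphate, and through the sterol arm, which begins with squalene. When sterols in the membrane of the endoplasmic reticulum are low, SCAP carries SREBP2 to the Golgi apparatus, where proteases release the part that enters the nucleus and drives the genes of both arms. The INSIG proteins hold SCAP back when sterols are plentiful. In the liver, Insig1 is itself a target of SREBPs, and Insig2 is known as a gene that is high in fasting and lowered by insulin.

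Of the 27 genes, 4 are regulators of SREBP, 8 belong to the mevalonate arm, 11 to the sterol arm, 2 to the supply of acyl-CoA, and 2 handle sterols or their uptake. Hmgcs1, which encodes the synthase that joins acetoacetyl-CoA and acetyl-CoA, was listed at 0 in all 54 libraries, so no change can be given for it. The other 26 genes passed the filter on low values, a mean of at least 0.5 RPKM (reads per kilobase of transcript, scaled to the mapped reads of the library), in each of the 5 experiments. Log2 fold changes are on the scale of log2(RPKM + 0.5). A gene was called changed at a Benjamini-Hochberg (BH) adjusted limma p under 0.01 in the NRF mice and under 0.05 elsewhere, adjusted over all genes tested. In whole liver, fewer cells of a type and less RNA per cell cannot be told apart.

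Libraries were not comparable across experiments. In the 8 libraries of the L-IRSdKO experiment the 5 hepatocyte markers (Alb, Apoa1, Ttr, Tat and Cps1) summed to between 2342 and 2834 RPKM, against 28155 to 74555 elsewhere, so levels were compared within an experiment. Idi1, the isomerase of isopentenyl diphosphate, read between 6.63 and 17.8 RPKM in the L-GRKO experiment and between 0.117 and 2.46 RPKM elsewhere. Reads of several genes could be shared with other places in the genome. Of the 32-base stretches of their exons, 85.2% in Idi1, 81.1% in Fdps, 46.8% in Insig1, 46.1% in Acat2, 31.3% in Ggps1 and 28.4% in Fdft1 also occur elsewhere in mm9, against at most 6.5% in the other genes. Exons of Fdft1 overlap Ctsb on the opposite strand over 26.9% of their bases, and those of Scap overlap another gene over 18.9%.

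In the diet experiment 1 library stood apart, the one labelled unfed DIO replicate 1. It read 93.6 RPKM for the clock output gene Dbp, against 7.70 to 31.7 RPKM in the other 11 libraries. It also read 2668 RPKM for Scd1, against 32.7 to 321 RPKM in the other 5 DIO libraries and 1231 to 4296 RPKM in the 6 lean ones. On Scd1 it thus lay in the lean range, but on Dbp it lay outside that range too (15.7 to 31.5 RPKM). Both genes were chosen after their values were seen. Endothelial markers summed to 30.9 to 39.3 RPKM over the unfed DIO mice, this one included, against 54.4 to 65.6 RPKM in unfed lean mice. The diet label of this library is in doubt, and whether it is wrong was not tested. Values of unfed DIO mice, of the DIO meal and of the interaction of diet and meal rest on that label and are given with and without it.

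**Figure D1:**
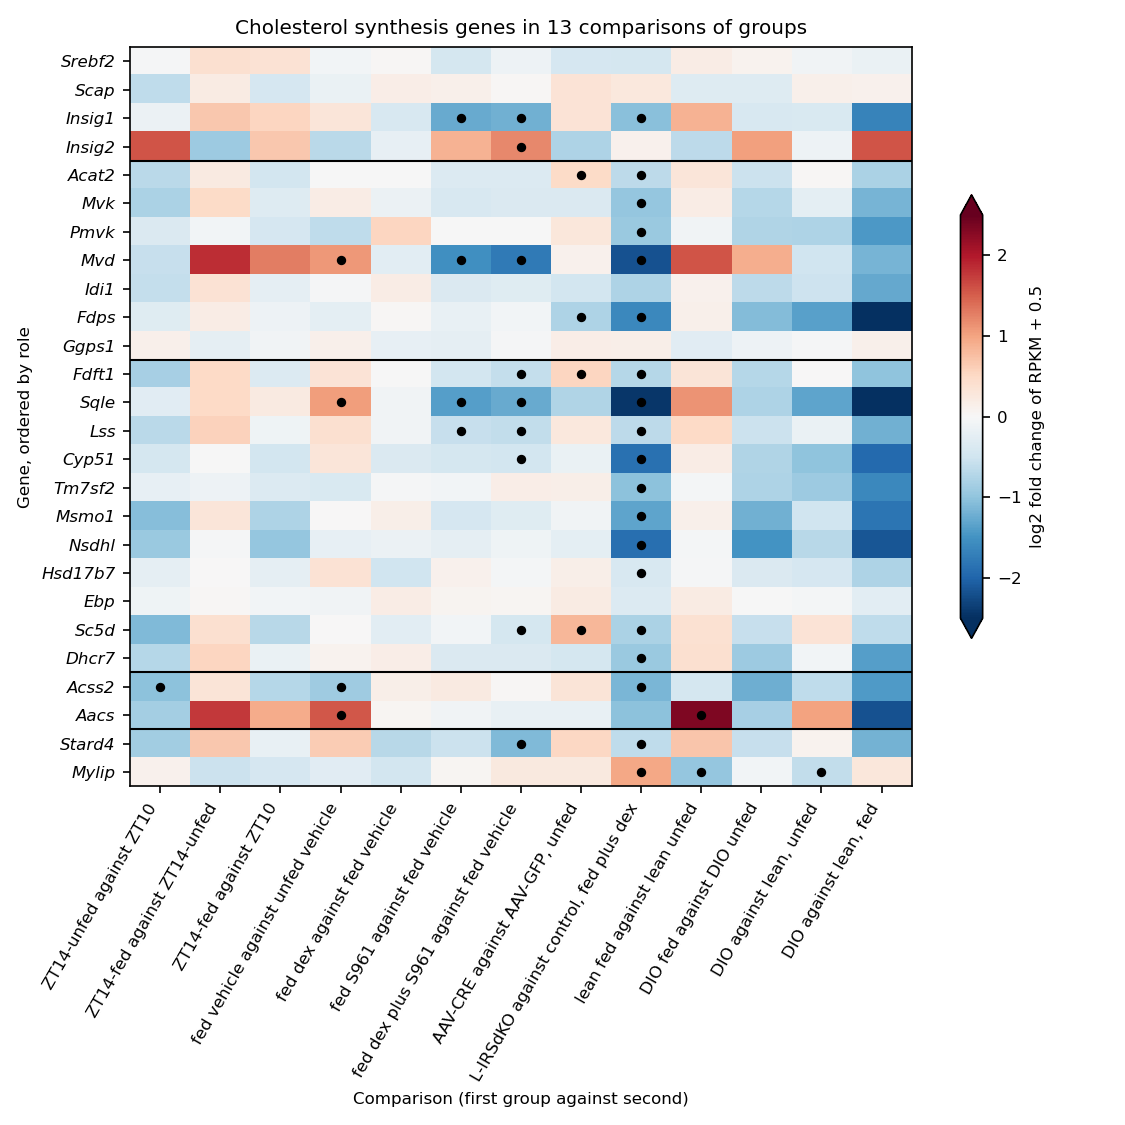
Log2 fold changes of RPKM + 0.5 for the 26 tested genes (rows, ordered by role, with lines between roles) in 13 comparisons of groups (columns); colour runs from blue (lower) to red (higher), and a dot marks a called gene. The L-IRSdKO column holds more dots than any other, with 1 gene higher and 18 lower, and the DIO against lean fed column is largely blue with 0 dots.

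Letters shared by the promoters were counted. Promoter windows of 300 bases around the transcription start came from RefSeq (GRCm38.p6) and were found for 23 of the 27 genes. Fdps, Fdft1, Sqle and Stard4 had none. CCAAT, the box of the factor NF-Y, which works with SREBPs at sterol genes, was found on either strand in 20 of 23 (87.0%), against 41.1% of 27025 genes with a window and 42.9% of the expressed ones. GGGCGG, the GC box of the SP family, was found in 20 of 23 (87.0%), against 38.2% of all genes and 67.2% of the expressed ones. The E-box CACGTG stood in 5 of 23 (21.7%), in Scap, Insig1, Hsd17b7, Sc5d and Dhcr7, against 8.09% of all genes and 12% of the expressed ones. TCACNCCAC, a strict core of the sterol element, was found in Hmgcs1 alone (4.35%, against 1.44% of all genes). These are letters in a window, counted per gene whether matches overlapped or not, and not shown to be bound.

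Windows are given for the 5 genes with one that were called lower both with dex and S961 and in L-IRSdKO, Insig1 (chr5:28071162-28071461, plus strand), Mvd (chr8:122443373-122443672, minus strand), Lss (chr10:76531355-76531654, plus strand), Cyp51 (chr5:4104648-4104947, minus strand) and Sc5d (chr9:42264251-42264550, minus strand), with the Hmgcs1 element (chr13:119690202-119690234, plus strand), all of GRCm38.p6. They show the boxes that recur in the group, and each runs 5′ to 3′ on the strand of its gene. Capitals mark the NF-Y box, the GC box and the E-box, read on either strand. The core TCACNCCAC is in capitals in Hmgcs1.
Insig1: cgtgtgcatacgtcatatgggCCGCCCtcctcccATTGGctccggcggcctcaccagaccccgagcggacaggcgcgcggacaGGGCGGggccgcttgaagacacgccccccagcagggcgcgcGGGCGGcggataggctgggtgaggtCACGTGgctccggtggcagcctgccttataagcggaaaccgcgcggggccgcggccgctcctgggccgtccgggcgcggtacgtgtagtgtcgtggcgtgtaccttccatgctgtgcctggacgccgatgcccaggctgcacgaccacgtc
Mvd: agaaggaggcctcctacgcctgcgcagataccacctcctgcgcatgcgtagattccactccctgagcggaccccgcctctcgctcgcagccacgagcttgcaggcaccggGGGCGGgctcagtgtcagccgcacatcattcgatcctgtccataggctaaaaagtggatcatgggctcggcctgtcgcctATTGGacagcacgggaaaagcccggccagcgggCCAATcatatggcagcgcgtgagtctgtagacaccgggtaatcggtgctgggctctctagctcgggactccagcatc
Lss: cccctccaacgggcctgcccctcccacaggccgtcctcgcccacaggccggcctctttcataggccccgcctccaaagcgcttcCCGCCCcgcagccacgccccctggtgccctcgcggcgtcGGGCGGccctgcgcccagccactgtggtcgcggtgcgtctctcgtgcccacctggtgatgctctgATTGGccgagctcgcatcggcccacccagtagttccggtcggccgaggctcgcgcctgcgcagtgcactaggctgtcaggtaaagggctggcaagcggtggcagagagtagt
Cyp51: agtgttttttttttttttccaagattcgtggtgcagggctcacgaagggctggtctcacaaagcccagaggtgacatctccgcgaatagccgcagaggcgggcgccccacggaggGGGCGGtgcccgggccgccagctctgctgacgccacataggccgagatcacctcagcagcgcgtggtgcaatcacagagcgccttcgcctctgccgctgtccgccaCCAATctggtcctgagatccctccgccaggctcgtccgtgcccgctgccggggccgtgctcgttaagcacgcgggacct
Sc5d: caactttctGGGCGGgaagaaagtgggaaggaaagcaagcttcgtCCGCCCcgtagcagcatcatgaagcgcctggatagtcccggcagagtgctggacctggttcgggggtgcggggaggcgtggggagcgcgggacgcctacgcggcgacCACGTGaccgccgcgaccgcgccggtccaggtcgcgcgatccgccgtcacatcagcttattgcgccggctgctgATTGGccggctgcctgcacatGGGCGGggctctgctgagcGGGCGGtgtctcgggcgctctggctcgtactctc
Hmgcs1: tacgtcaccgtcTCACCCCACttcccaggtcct
Insig1 and Sc5d held all 3 boxes, whereas Mvd, Lss and Cyp51 held CCAAT and GGGCGG but no E-box.

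The time of day was compared first, in ZT14-unfed against ZT10 livers. The ZT14-unfed mice had also gone longer without food, so time of day and length of the fast cannot be told apart here. Without food, 23 of 26 genes read lower at ZT14 than at ZT10, among them all 11 of the sterol arm, but Acss2 alone passed the test. Among the 26, 0 were called higher and 1 lower, where 0.376% of all 10907 genes were called higher and 0.788% lower. The median log2 fold change was -0.58, against -0.10 over all genes, and -0.49 with the libraries scaled to a common median ratio. An unadjusted limma p under 0.05 was found for 16 of 26 genes, against 26.4% of all genes. In 19 of 26 genes both ZT14-unfed mice read below both ZT10 mice, which was so for 41.2% of all genes. Acss2, which makes acetyl-CoA from acetate, read 48.7 and 64.5 RPKM at ZT10, 26.3 and 27.9 RPKM at ZT14-unfed, and 33.7 and 33.9 RPKM at ZT14-fed. Its log2 fold change without food was -1.03 (SE 0.14, BH-adjusted p = 0.00929). The call was close to the threshold and was lost in 9 of 10 alternatives.

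Insig2 went the other way from the enzymes. It read 14.2 and 11.2 RPKM at ZT10, 29.9 and 50.1 RPKM at ZT14-unfed, and 22.6 and 18.6 RPKM at ZT14-fed. Both unfed ZT14 mice read above all others. Its log2 fold change of 1.58 from ZT10 to ZT14-unfed (SE 0.24, BH-adjusted p = 0.0129) fell short of the threshold of 0.01. Insig1 read 91.7 and 108 RPKM at ZT10, 120 and 67.5 RPKM at ZT14-unfed, and 143 and 145 RPKM at ZT14-fed, so the unfed mice overlapped those at ZT10. The sterol arm was lower in all 11 genes, with a median of -0.67, including Sc5d (-1.09), Msmo1 (-1.06) and Nsdhl (-0.94). Between these groups Srebf2, which encodes SREBP2 itself, differed by -0.03 (SE 0.16), Sqle by -0.28 (SE 0.22), Idi1 by -0.59 (SE 0.19), Fdps by -0.31 (SE 0.15) and Cyp51 by -0.44 (SE 0.16). None of these differences passed the test. At a threshold of 0.05, 1 gene was called higher and 8 lower, where 1.98% and 6.97% of all genes were.

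The meal was compared in 3 experiments that share no mice. In uninjected NRF mice, 0 of 26 genes were called higher and 0 lower between ZT14-unfed and ZT14-fed, where 0.568% of all genes were called higher and 0.422% lower. The median was 0.30, against 0.12 over all genes, 12 genes had an unadjusted limma p under 0.05 (27.7% of all genes), and 19 of 26 read higher. With median-ratio scaling the median of the genes was 0.17 and 17 read higher. In 15 of 26 genes both fed mice read above both unfed mice (45.6% of all genes). Mvd, the decarboxylase of mevalonate diphosphate, read 4.09 and 1.66 RPKM unfed and 9.51 and 12.3 RPKM fed. The fed mice were above the unfed mice, by a log2 fold change of 1.85 (SE 0.32, BH-adjusted p = 0.0211). Aacs, which makes acetoacetyl-CoA from acetoacetate, read 9.32 and 3.24 RPKM unfed and 15.5 and 26.1 RPKM fed. Its log2 difference was 1.77 (SE 0.42), and that of Insig2 was -0.90 (SE 0.24), Insig1 0.67 (SE 0.24), Sqle 0.51 (SE 0.22), Srebf2 0.39 (SE 0.16), Idi1 0.36 (SE 0.19), Acss2 0.31 (SE 0.14), Fdps 0.19 (SE 0.15) and Cyp51 -0.01 (SE 0.16). Fed mice at ZT14 also gave 0 calls against ZT10, higher (0.899% of all genes) or lower (0.807%), with a median of -0.23 and 12 genes at an unadjusted limma p under 0.05 (28.3%). In that comparison Acss2 differed by -0.72 (SE 0.14), Cyp51 by -0.45 (SE 0.16), Insig2 by 0.68 (SE 0.24), Insig1 by 0.53 (SE 0.24), Srebf2 by 0.36 (SE 0.16), Sqle by 0.23 (SE 0.22), Idi1 by -0.23 (SE 0.19) and Fdps by -0.12 (SE 0.15). Groups of 2 mice left these values uncertain. From ZT10 to ZT14-unfed, the difference ran among the alternatives from -0.56 to 0.27 for Insig1 and from 1.21 to 1.95 for Insig2.

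In vehicle-injected mice, a meal raised 3 genes of 26, Mvd, Sqle and Aacs, and lowered Acss2, where 2.55% of all 11251 genes rose and 0.578% fell. Sqle, the epoxidase that commits squalene to sterols, read 16.4, 12.3, 13.3 and 16.1 RPKM in unfed mice and 39.1, 33.7, 35.9 and 17.8 RPKM in fed mice. The fed mice were all above the unfed mice, with a log2 fold change of 1.04 (SE 0.23, BH-adjusted p = 0.0212). Mvd read 2.16, 1.89, 1.89 and 3.28 RPKM unfed and 4.59, 5.12, 5.84 and 6.02 RPKM fed, without overlap. It rose by 1.09 (SE 0.19, BH-adjusted p = 0.00598). Aacs read 9.90, 9.58, 9.48 and 14.2 RPKM unfed and 39.8, 48.5, 45.2 and 12.2 RPKM fed. Fed replicate 4 alone lay among the unfed mice, and the log2 fold change was 1.56 (SE 0.34, BH-adjusted p = 0.0190). Acss2 read 91.8, 78.7, 68.7 and 45.9 RPKM unfed and 35.9, 31.5, 45.8 and 37.3 RPKM fed. The groups did not overlap but came within 1 RPKM of each other, and Acss2 fell by 0.88 on the log2 scale (SE 0.21, BH-adjusted p = 0.0313).

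No other gene was called. The median of the 26 was 0.01 against 0.10 over all genes, with 14 above 0, and 13 of 26 had an unadjusted limma p under 0.05 (19.3% of all genes). Groups lay apart in 2 genes that read higher after the meal (11% of all genes) and in 1 that read lower (2.5%). The log2 differences were 0.31 for Insig1 (SE 0.19), -0.67 for Insig2 (SE 0.23), -0.07 for Srebf2 (SE 0.16), -0.02 for Idi1 (SE 0.23), -0.25 for Fdps (SE 0.18) and 0.31 for Cyp51 (SE 0.14). The library numbers in the labels place replicate 4 of each injected group in a separate run of numbers from replicates 1 to 3. With replicates 1 to 3 alone, chosen after the data were seen, 7 genes were called higher and 1 lower, where 547 and 169 of 11230 genes were, and without fed vehicle replicate 4 the counts of the 26 were the same. A term for the library series over all 4 mice gave 5 higher and 2 lower, where 833 and 203 of all genes were. Leaving out fed vehicle replicate 2, unfed vehicle replicate 2 or unfed vehicle replicate 3 left 1 call, and leaving out fed vehicle replicate 1 or 3 or unfed vehicle replicate 1 left 2. Counts with single mice left out or with no filter, here and below, are given without the share of all genes called in the same fit. Where median-ratio scaling moved the split of all called genes, that split is given with the processing checks. Kupffer cell markers moved with this comparison: 3 of 5 were called higher after the meal, where 2.55% of all genes were. Their sum was 47.7 to 64.6 RPKM in unfed mice and 70.5 to 107 RPKM in fed mice. All 5 passed the filter, and their part in the result was not tested.

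In lean mice of the diet experiment, Aacs was higher after the meal and Mylip was lower. Of the 26 genes, 1 was called higher, where 16.1% of all 11434 genes were, and 1 lower, where 7.28% were, and 5 had an unadjusted limma p under 0.05 (36.3%). In 9 genes every fed mouse read above every unfed mouse (29%), and in 4 below (14.3%). Aacs read 10.3, 12.4 and 14.4 RPKM unfed and 93.4, 80.0 and 34.4 RPKM fed, with a log2 fold change of 2.33 (SE 0.46, BH-adjusted p = 0.00533). The groups did not overlap. Mylip, a ubiquitin ligase that marks lipoprotein receptors for breakdown and is driven by liver X receptors, read 4.44, 3.83 and 3.69 RPKM unfed and 1.75, 1.60 and 2.05 RPKM fed. All fed mice lay below the unfed mice, and the log2 fold change was -0.96 (SE 0.11, BH-adjusted p = 0.000346). The differences of Mvd and Sqle were 1.58 and 1.12 without a call, and those of Insig1 and Insig2 were 0.88 (SE 0.42) and -0.66 (SE 0.43). The remaining named genes differed by 0.18 for Srebf2 (SE 0.15), 0.11 for Idi1 (SE 0.46), 0.12 for Fdps (SE 0.77), 0.19 for Cyp51 (SE 0.70) and -0.44 for Acss2 (SE 0.58). Fitted without the other diet, 6 of the 26 were called higher and 2 lower, where 1913 and 913 of 11351 genes were, and 4 of the 26 were called with median-ratio scaling. In the same comparison 4 of 5 endothelial markers were called lower after the meal, where 7.28% of all genes were. Their sums were 54.4 to 65.6 RPKM unfed and 39.3 to 46.3 RPKM fed, and their part was not tested.

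Block of the insulin receptor lowered 4 of the 26 genes in fed mice and raised 0. Insig1, Mvd, Sqle and Lss fell with S961, where 0.96% of all genes were lower and 0.942% higher. Insig1, the SREBP-driven anchor of SCAP, read 73.1, 90.8, 50.5 and 49.0 RPKM in fed vehicle mice and 23.3, 31.5, 19.0 and 34.2 RPKM with S961. All S961 mice lay below all vehicle mice, and Insig1 fell by 1.26 on the log2 scale (SE 0.19, BH-adjusted p = 0.00201). Mvd read 2.00, 1.03, 1.27 and 1.96 RPKM with S961, all below the fed vehicle mice, a log2 fold change of -1.54 (SE 0.19, BH-adjusted p = 0.000523). Sqle read 14.3, 10.5, 11.1 and 10.2 RPKM with S961, again below every vehicle mouse, a log2 fold change of -1.37 (SE 0.23, BH-adjusted p = 0.00418). Both genes overlapped the unfed vehicle mice in their S961 levels. Lss, which closes the sterol ring, read 7.63, 8.24, 7.38 and 5.73 RPKM with vehicle and 5.04, 4.49, 4.31 and 4.67 RPKM with S961. The groups did not overlap, and the log2 fold change was -0.59 (SE 0.11, BH-adjusted p = 0.0104).

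Across all 26 genes the median was -0.28 against -0.08 over all genes, 10 had an unadjusted limma p under 0.05 (14.3%), and in 6 every S961 mouse read below every vehicle mouse (4.44%). The 7 genes of the mevalonate arm all read lower and 1 was called. With median-ratio scaling the median was -0.21 and 4 genes were again called. Insig2 read 65.1, 35.6, 37.9 and 32.6 RPKM with vehicle and 49.7, 77.3, 106 and 78.5 RPKM with S961. Vehicle replicate 1 lay above the lowest S961 mouse, and the difference of 0.86 (SE 0.23, BH-adjusted p = 0.0632) was not called. It passed with a term for the library series (adjusted p = 0.0398), without vehicle replicate 1 (adjusted p = 0.0251) and without S961 replicate 1 (adjusted p = 0.0154), and the adjusted p ranged from 0.0154 to 0.292 among the alternatives. The log2 differences of the rest named were -0.44 for Srebf2 (SE 0.16), -0.45 for Cyp51 (SE 0.14), -0.37 for Idi1 (SE 0.23), -0.18 for Fdps (SE 0.18) and 0.23 for Acss2 (SE 0.21). Aacs, which was raised by the meal, differed by -0.08 with S961. Without fed vehicle replicate 4, 7 genes were called lower. With the series term Insig2 was called higher and 6 genes lower, where 202 and 276 of all genes were. In the S961 group 3 of 5 Kupffer cell markers were called lower than in fed vehicle mice, where 0.96% of all genes were. Their sums were 46.3 to 70.8 RPKM, and their part was not tested.

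Dex in fed mice gave 0 calls among the 26 genes, where 1% of all genes were called higher and 2.19% lower, and 7 had an unadjusted limma p under 0.05 (18.5%). In 2 genes every dex mouse read below every vehicle mouse (8.15% of all genes), and in 1 above (2.37%). With dex 2 of 5 endothelial markers and 1 of 5 Kupffer cell markers were called lower, where 2.19% of all genes were. The part of these markers was not tested. Insig1 read 41.9, 46.8, 53.0 and 50.5 RPKM with dex, which overlaps the vehicle range, and the difference was -0.41 (SE 0.19). The differences were -0.20 for Insig2 (SE 0.23), 0.02 for Srebf2 (SE 0.16), -0.10 for Sqle (SE 0.23), 0.19 for Idi1 (SE 0.23), 0.02 for Fdps (SE 0.18), -0.36 for Cyp51 (SE 0.14) and 0.15 for Acss2 (SE 0.21). A planned term for the library series, over all 4 mice, gave 1 call higher and 3 lower, where 264 and 832 of all genes were called. With replicates 1 to 3 alone the counts were again 1 and 3, where 234 and 584 of all genes were, and without fed vehicle replicate 4 alone 2 were called lower. Dex and S961 together gave 1 call higher and 8 lower, against 2.7% and 7.9% of all genes, and 10 genes had an unadjusted limma p under 0.05 (25.8%). Insig2 read 80.7, 126, 71.6 and 115 RPKM with both agents, above every vehicle mouse, and rose by 1.21 (SE 0.23, BH-adjusted p = 0.00269). Insig1 read 29.2, 26.2, 31.9 and 22.8 RPKM, below every vehicle mouse, with a log2 fold change of -1.20 (SE 0.19, BH-adjusted p = 0.000672). Mvd read 1.29, 1.15, 0.961 and 1.49 RPKM, the lowest group mean of the 5, a log2 fold change of -1.78 (SE 0.19, BH-adjusted p = 1.5e-05). Sqle read 16.1, 11.4, 11.8 and 10.95 RPKM and fell by 1.25 (SE 0.23, BH-adjusted p = 0.00194).

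The other calls with dex and S961 were smaller. Lss (-0.61), Fdft1 (-0.60), the squalene synthase, Cyp51 (-0.45), the lanosterol demethylase, Sc5d (-0.43), a late desaturase, and Stard4 (-1.10), a carrier of cholesterol in the cytosol, were called lower, with BH-adjusted limma p from 0.00208 to 0.0394. The calls of Cyp51, Sc5d and Stard4 were lost in 9, 8 and 6 of 16 alternatives. Srebf2 (-0.12), Idi1 (-0.31), Fdps (-0.07) and Acss2 (0.02) were not called. Over all genes the median was -0.14, and it was near 0 with median-ratio scaling, under which 12 rather than 6 of the 26 genes read higher and 6 were called lower. The interaction of dex and S961 gave 0 calls for the 26 genes and 0% of all 11251, with 1 of the 26 and 4.56% of all genes at an unadjusted limma p under 0.05. Its estimates were 0.46 for Insig1 (SE 0.27), 0.54 for Insig2 (SE 0.33), 0.30 for Srebf2 (SE 0.22), 0.21 for Sqle (SE 0.32), 0.35 for Cyp51 (SE 0.19), -0.13 for Idi1 (SE 0.32), 0.09 for Fdps (SE 0.26) and -0.35 for Acss2 (SE 0.30). With both agents 4 of 5 Kupffer cell markers were called lower than with vehicle, where 7.9% of all genes were. Their sums were 55.3 to 65.1 RPKM, and their part was not tested. The meal in vehicle-injected mice and the comparisons of dex, S961 and both share the fed vehicle mice.

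**Figure D2:**
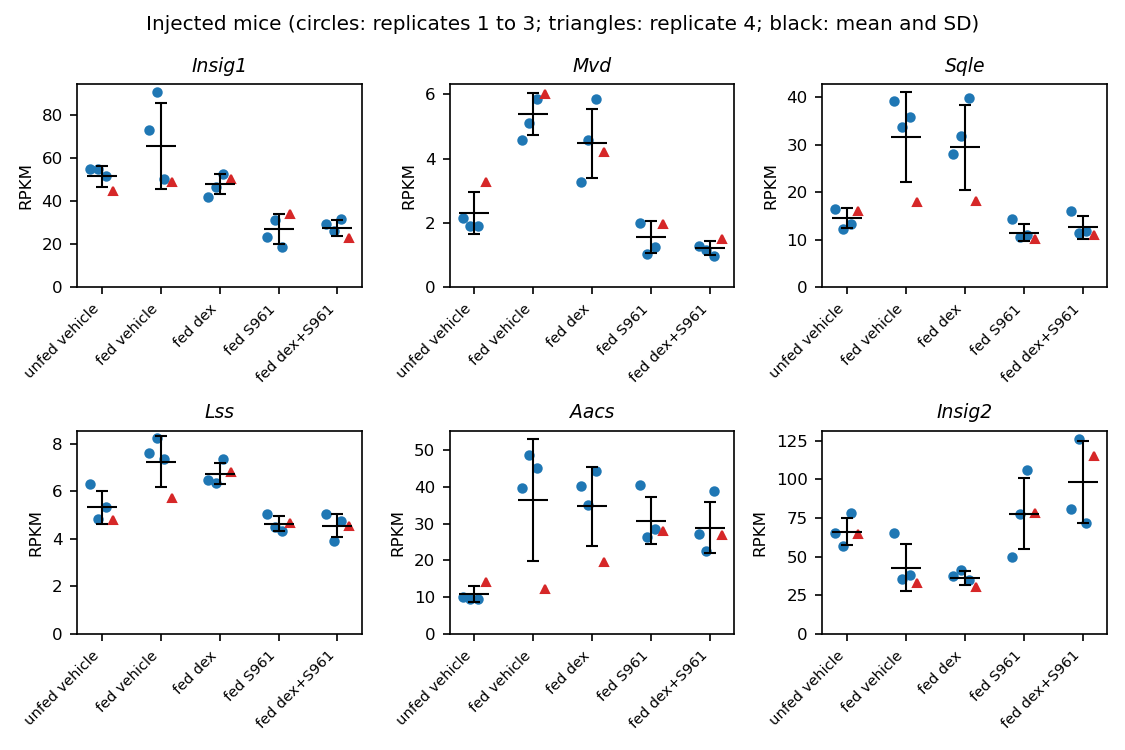
RPKM of 6 genes in the 5 injected groups, with circles for replicates 1 to 3, triangles for replicate 4, and a black line with bars for the mean and SD of 4 mice. Insig1, Mvd, Sqle and Lss are low in both S961 groups, Aacs is high in all fed groups, with fed vehicle replicate 4 at 12.2 RPKM, and Insig2 is highest with dex and S961.

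Loss of GR was examined in unfed mice. The targeted gene Nr3c1 read 14.2 ± 1.55 RPKM (SD, n = 4) with AAV-GFP and 4.41 ± 0.637 RPKM with AAV-CRE, a log2 fold change of -1.58. Acat2, Fdft1 and Sc5d rose and Fdps fell, so 3 of 26 genes were called higher and 1 lower, where 4.46% and 2.22% of all 11649 genes were. Sc5d read 61.6, 86.4, 80.4 and 59.8 RPKM with AAV-GFP and 134, 137, 124 and 111 RPKM with AAV-CRE. The groups lay apart, and Sc5d rose by 0.82 (SE 0.13, BH-adjusted p = 0.00511). Fdft1 read 14.2, 16.8, 19.8 and 17.3 RPKM against 28.0, 22.7, 22.0 and 27.1 RPKM, and rose by 0.54 (SE 0.12, BH-adjusted p = 0.0250). Acat2, a cytosolic thiolase, read 19.7, 20.01, 22.0 and 17.3 RPKM against 29.0, 27.2, 25.4 and 28.5 RPKM, and rose by 0.47 (SE 0.10, BH-adjusted p = 0.0156). Fdps, the synthase of farnesyl diphosphate, read 109, 141, 132 and 127 RPKM against 96.6, 65.0, 59.1 and 78.8 RPKM and fell by 0.78 (SE 0.15, BH-adjusted p = 0.0118). The groups of these 4 genes did not overlap. Among all 26 genes, every AAV-CRE mouse read above every AAV-GFP mouse in 4 (9.49% of all genes) and below in 1 (3.28%). Of the 4 called genes, 3 share much of their exon sequence with other places in the genome.

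Neither Insig gene was called after loss of GR. Insig2 read 86.4, 32.3, 28.2 and 32.9 RPKM with AAV-GFP and 19.95, 24.5, 29.0 and 20.6 RPKM with AAV-CRE. AAV-GFP replicate 1 stood far above the others, and the difference of -0.78 (SE 0.30, BH-adjusted p = 0.17) was -0.41 without it. Insig1 read 76.7, 73.6, 137 and 77.7 RPKM against 131, 90.8, 111 and 118 RPKM, a difference of 0.34 (SE 0.19). Without AAV-GFP replicate 3 it was 0.55 and passed the test (BH-adjusted p = 0.031, and 0.031 to 0.769 among all alternatives). Sqle differed by -0.74 (SE 0.29), Srebf2 by -0.42 (SE 0.18), Idi1 by -0.45 (SE 0.20), Acss2 by 0.33 (SE 0.12) and Cyp51 by -0.16 (SE 0.12), and the median of the 26 was 0.15, with 12 genes at an unadjusted limma p under 0.05 (20.1%). The 4 calls became 0 without the filter on low values, 2 with median-ratio scaling and 2 without AAV-CRE replicate 1. The share of all genes called without the filter or without that mouse is not given here. With AAV-CRE 2 of 5 hepatocyte markers were called lower and 0 higher, where 2.22% of all genes were lower. Their part was not tested.

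In fed, dex-injected L-IRSdKO livers 18 of 26 genes were called lower and 1 higher, where 8.31% and 9.06% of all 12966 genes were. Irs1 read 4.03 ± 1.22 RPKM (SD, n = 4) in control and 0.199 ± 0.082 RPKM in L-IRSdKO livers, a log2 fold change of -2.66, and Irs2 read 2.19 ± 2.31 and 0.773 ± 0.337 RPKM, which was not called. The median log2 fold change of the 26 genes was -0.86 against 0.03 over all genes, 24 had an unadjusted limma p under 0.05 (32.8% of all genes), and in 16 every L-IRSdKO mouse read below every control mouse (9.58%). Of the sterol arm 10 of 11 genes fell, and Ebp, at -0.35, did not pass. Of the 7 tested genes of the mevalonate arm 5 fell, and Idi1 (-0.76, SE 0.33) and Ggps1 (0.14) did not pass.

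Sqle read 41.9, 70.1, 41.7 and 46.7 RPKM in control and 22.2, 5.35, 8.001 and 5.60 RPKM in L-IRSdKO mice. The groups did not overlap, L-IRSdKO replicate 1 lay between the rest, and Sqle fell by 2.44 on the log2 scale (SE 0.40, BH-adjusted p = 0.00661), the steepest of the 26. Mvd read 12.2, 25.5, 9.75 and 21.7 RPKM in control and 7.79, 2.03, 2.14 and 2.67 RPKM in L-IRSdKO mice, and fell by 2.19 (SE 0.43, BH-adjusted p = 0.0118). Cyp51 read 38.6, 50.7, 37.3 and 34.6 RPKM against 19.1, 7.67, 8.54 and 10.0 RPKM, and fell by 1.86 (SE 0.26, BH-adjusted p = 0.00421). In each of these genes L-IRSdKO replicate 1 was the mouse nearest to the controls. Nsdhl (-1.88), Fdps (-1.62), Msmo1 (-1.32) and Tm7sf2 (-1.03), enzymes of the demethylation and reduction of sterols but for Fdps, were also lower, with BH-adjusted limma p from 0.00527 to 0.0131. Mvk (-0.96), Dhcr7 (-0.93), Pmvk (-0.93), Sc5d (-0.79), Fdft1 (-0.71), Lss (-0.66), Acat2 (-0.66), Stard4 (-0.64) and Hsd17b7 (-0.39) fell by less.

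Of the 4 regulators, Insig1 alone was called in the same livers. It read 53.99, 91.3, 58.5 and 78.7 RPKM in control and 50.2, 23.0, 30.2 and 34.8 RPKM in L-IRSdKO mice, without overlap, and fell by 1.04 (SE 0.24, BH-adjusted p = 0.0209), a call lost in 7 of 13 alternatives. Insig2 read 109, 121, 152 and 139 RPKM against 117, 116, 181 and 150 RPKM, with overlapping groups and a difference of 0.10 (SE 0.16, BH-adjusted p = 0.70). Srebf2 read 19.9, 27.7, 19.9 and 21.7 RPKM against 23.8, 15.4, 12.4 and 14.6 RPKM, a difference of -0.45 (SE 0.19) that was not called, and Scap differed by 0.26. Acss2 read 37.1, 42.5, 37.9 and 35.2 RPKM against 13.7, 16.2, 21.0 and 17.4 RPKM, and fell by 1.15 (SE 0.13, BH-adjusted p = 0.00176). Its L-IRSdKO mice were all far below the controls, and replicate 1 was the lowest. Mylip was the gene that rose, from 7.64, 5.96, 9.56 and 7.34 RPKM to 14.1, 15.6, 16.2 and 15.2 RPKM, by 0.97 (SE 0.13, BH-adjusted p = 0.00419). Aacs differed by -1.03 (SE 0.41) without a call.

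Leaving out single mice gave between 12 and 22 calls in the L-IRSdKO comparison, the lowest without L-IRSdKO replicate 4, and 8 genes were called without the filter on low values. Sqle, Cyp51, Fdps, Msmo1, Acss2, Stard4 and Mylip passed in every alternative run. Endothelial markers were called higher in 3 of 5 genes and Kupffer cell markers in 1 of 5, where 9.06% of all genes were. Endothelial sums were 88.9 to 116 RPKM in control and 108 to 143 RPKM in L-IRSdKO mice. Kupffer cell sums were 151 to 268 and 259 to 302 RPKM. The part of these markers in the result was not tested.

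**Figure D3:**
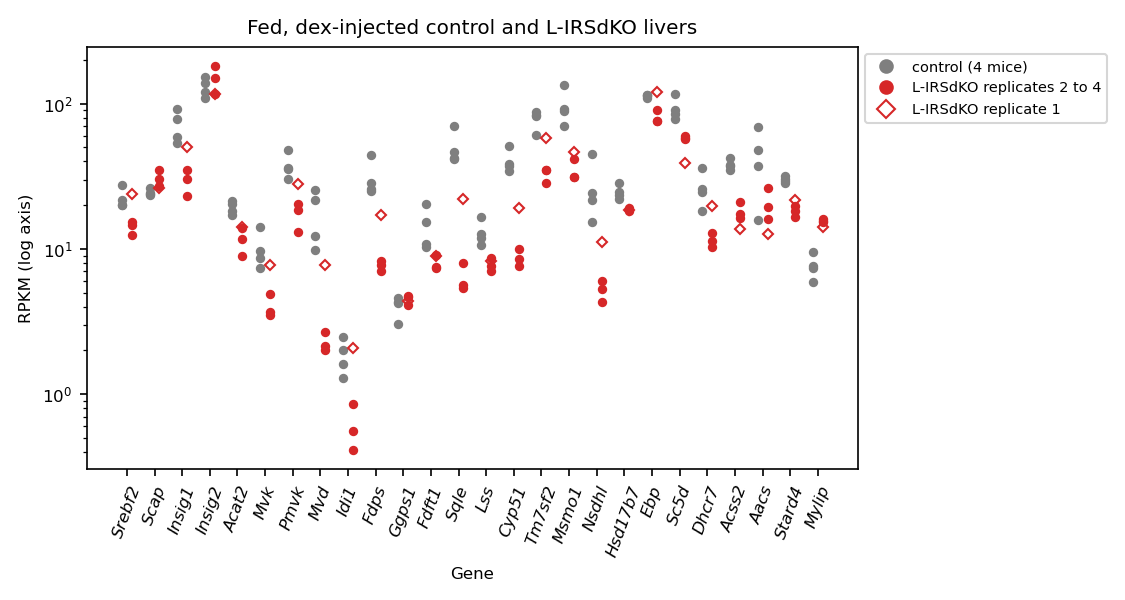
RPKM on a log axis of the 26 tested genes in fed, dex-injected control mice (grey, 4 mice) and L-IRSdKO mice (red, with an open diamond for replicate 1). The red points lie below the grey ones for most genes and above them for Mylip, and for Sqle, Fdps and Cyp51 the open diamond, at 22.2, 17.0 and 19.1 RPKM, is nearest to the grey points.

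After the meal, obese livers read lower than lean livers in 22 of 26 genes, with a median log2 fold change of -1.18 against 0.01 over all genes. None of the 26 passed the adjusted test in the fit of all 4 groups, with 0 higher and 0 lower, where 0.289% and 0.21% of all genes were called, but 21 had an unadjusted limma p under 0.05 (20% of all genes). In 20 of 26 genes every fed DIO mouse read below every fed lean mouse (14.9% of all genes), and in 2, Insig2 and Mylip, every one read above (17.8%). With the 2 groups fitted alone, 14 were called lower and 1 higher, where 338 and 382 of 11398 genes were. With unfed DIO replicate 1 left out of the shared estimate of the spread, a choice made after the data were seen, 18 were called lower and 1 higher, where 291 and 317 of 11442 genes were. Sqle read 42.6, 37.0 and 32.6 RPKM in lean fed and 1.52, 16.0 and 1.54 RPKM in DIO fed mice. DIO replicate 2 lay between the groups, and the difference was -3.20 (SE 0.99, BH-adjusted p = 0.13).

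Fdps read 81.2, 79.6 and 74.8 RPKM in lean fed and 10.3, 26.9 and 7.42 RPKM in DIO fed mice, a difference of -2.57 (SE 0.77). Cyp51 read 36.9, 39.4 and 33.5 RPKM against 6.39, 22.6 and 5.03 RPKM, a difference of -1.95 (SE 0.70). DIO replicate 2 was the highest DIO mouse for both and for Sqle, and it stayed below the lean mice. Insig1 read 140, 112 and 93.4 RPKM against 36.5, 57.9 and 21.0 RPKM, a difference of -1.66 (SE 0.42). Insig2 read 31.2, 27.3 and 36.1 RPKM against 87.3, 85.5 and 112 RPKM, a difference of 1.57 (SE 0.43). The pair thus lay apart in opposite directions, Insig1 below and Insig2 above the lean mice. Aacs (-2.17, SE 0.46), Nsdhl (-2.14), Acss2 (-1.42, SE 0.58) and Idi1 (-1.28, SE 0.46) also differed without a call, while Srebf2 differed by -0.16 (SE 0.15).

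Before the meal, Mylip was the only gene of the 26 called between diets, 0 higher and 1 lower, where 3.52% and 1.7% of all genes were. Mylip read 4.44, 3.83 and 3.69 RPKM in lean unfed and 2.33, 2.59 and 2.36 RPKM in DIO unfed mice, without overlap, and was lower by a log2 fold change of -0.61 (SE 0.11, BH-adjusted p = 0.0128). Sqle read 23.0, 11.8 and 17.6 RPKM against 39.1, 1.90 and 3.09 RPKM, so that DIO replicate 1 was above and the other DIO mice below every lean mouse. Insig1 read 61.2, 59.9 and 63.7 RPKM against 96.7, 34.3 and 31.1 RPKM in the same pattern, and Insig2 read 72.6, 37.7 and 44.9 RPKM against 21.0, 99.4 and 45.5 RPKM. The differences were -1.31 for Sqle (SE 0.99), -0.39 for Insig1 (SE 0.42), -0.12 for Insig2 (SE 0.43), -0.08 for Srebf2 (SE 0.15), -0.52 for Idi1 (SE 0.46), -1.36 for Fdps (SE 0.77), -1.01 for Cyp51 (SE 0.70) and -0.63 for Acss2 (SE 0.58). Only 2 genes had an unadjusted limma p under 0.05 (22.9%), with a median of -0.32. Without unfed DIO replicate 1, 8 genes were called lower and the median was -0.76. The share of all genes called in that fit is not given here, so the 8 cannot be set against it. Sqle (-2.57), Fdps (-2.43), Cyp51 (-1.94), Acss2 (-1.42) and Mylip (-0.59) were then called, and Idi1 (-1.11), Insig1 (-0.91), Insig2 (0.43) and Srebf2 (-0.21) were not. In this comparison, with all DIO mice, 4 of 5 endothelial markers were called lower in DIO mice, where 1.7% of all genes were. Their sums were 54.4 to 65.6 RPKM in lean and 30.9 to 39.3 RPKM in DIO mice, and their part was not tested.

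The meal in obese mice gave 0 calls higher and 0 lower, against 5.17% and 2.48% of all genes, and 4 genes had an unadjusted limma p under 0.05 (25.2%). The median was -0.61 with 23 of 26 genes lower, but it was -0.09 without unfed DIO replicate 1, when 1 gene was called higher, and without unfed DIO replicate 2, 2 genes were called. Insig2 differed by 1.03 (SE 0.43), Insig1 by -0.40 (SE 0.42), Sqle by -0.77 (SE 0.99), Fdps by -1.09 (SE 0.77), Cyp51 by -0.75 (SE 0.70), Idi1 by -0.65 (SE 0.46), Acss2 by -1.23 (SE 0.58) and Srebf2 by 0.10 (SE 0.15). Without unfed DIO replicate 1 they were 0.48 for Insig2, 0.12 for Insig1, 0.48 for Sqle, -0.022 for Fdps, 0.18 for Cyp51, -0.052 for Idi1, -0.44 for Acss2 and 0.22 for Srebf2. Insig1, Sqle and Cyp51 thus changed sign, and none of the 8 was called with or without it. The interaction of diet and meal was called for Mylip alone, 1 higher and 0 lower, against 0.42% and 0.324% of all genes, with 6 of 26 genes at an unadjusted limma p under 0.05 (15%). For Mylip it was 0.90 (SE 0.15, BH-adjusted p = 0.0261), where the level went from the lean unfed values above to 1.75, 1.60 and 2.05 RPKM in lean fed mice, while DIO fed mice read 2.55, 2.07 and 2.29 RPKM and overlapped the DIO unfed range. The call was lost in 9 of 17 alternatives. With single mice left out, 3 genes were called without unfed DIO replicate 2, 2 without unfed DIO replicate 1 or lean fed replicate 3, 1 without lean unfed replicate 1 or DIO fed replicate 2, and 0 without any other. The estimates for the other named genes were -1.28 for Insig1 (SE 0.59), 1.69 for Insig2 (SE 0.61), -0.08 for Srebf2 (SE 0.21), -1.89 for Sqle (SE 1.39), -0.76 for Idi1 (SE 0.65), -1.21 for Fdps (SE 1.09), -0.94 for Cyp51 (SE 0.99) and -0.78 for Acss2 (SE 0.82), with a median of -0.87 over the 26 genes. Without unfed DIO replicate 1 the median was -0.21, and the estimates were -0.76 for Insig1, 1.14 for Insig2, 0.043 for Srebf2, -0.64 for Sqle, -0.16 for Idi1, -0.14 for Fdps, -0.010 for Cyp51, -0.00059 for Acss2 and 0.88 for Mylip. Of these 9 genes Mylip alone was called.

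**Figure D4:**
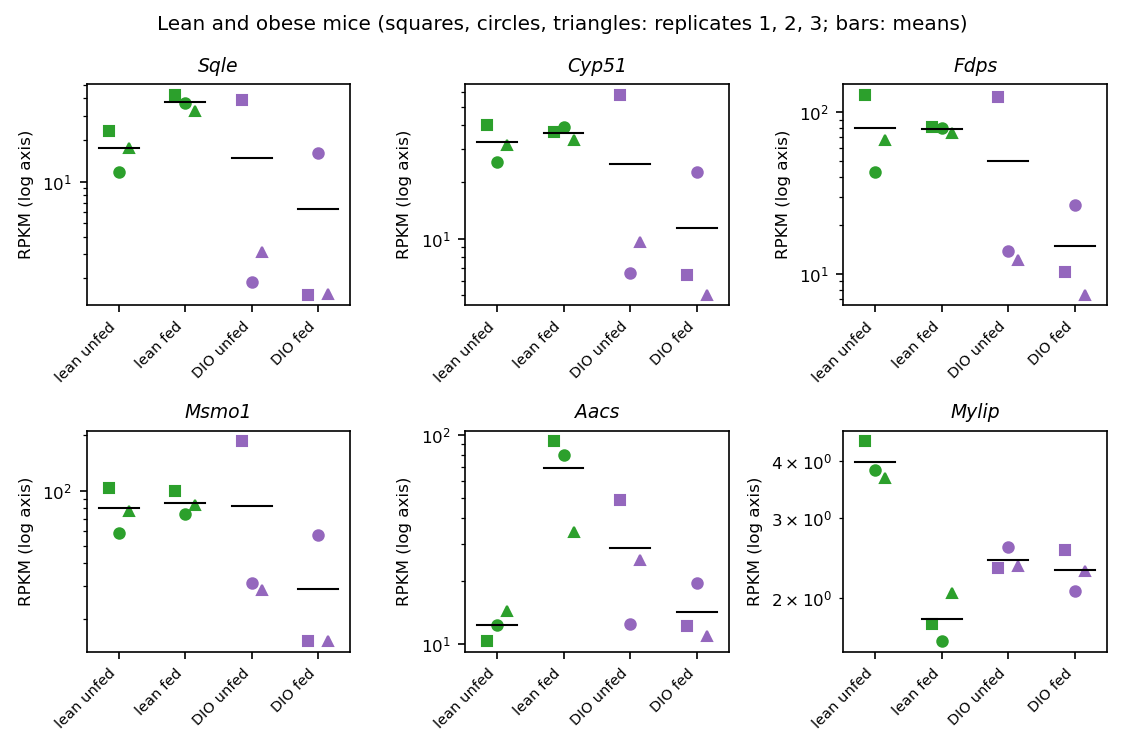
RPKM on log axes of 6 genes in lean and DIO mice, unfed and fed, with squares, circles and triangles for replicates 1, 2 and 3 and bars for means. Sqle, Cyp51, Fdps, Msmo1 and Aacs are low in fed DIO mice, and the square of unfed DIO replicate 1, at 39.1 RPKM for Sqle, lies apart from the other unfed DIO mice.

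Across experiments, Insig2 read lower after food in each of the 3 meal comparisons of lean or wild-type mice, by -0.90, -0.67 and -0.66, though none was called, while Insig1 read higher by 0.67, 0.31 and 0.88, also without a call. Under S961 the order turned, with Insig1 called lower and Insig2 at 0.86, and dex with S961 raised Insig2. Srebf2 was called in none of the 15 comparisons, and neither was Scap. Mvd was the one gene of the mevalonate arm called with the meal in vehicle-injected mice and with S961, in opposite directions. Both of these comparisons share the fed vehicle mice, so opposite signs in them, for Mvd or the Insig genes, are not independent results.

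**Figure D5:**
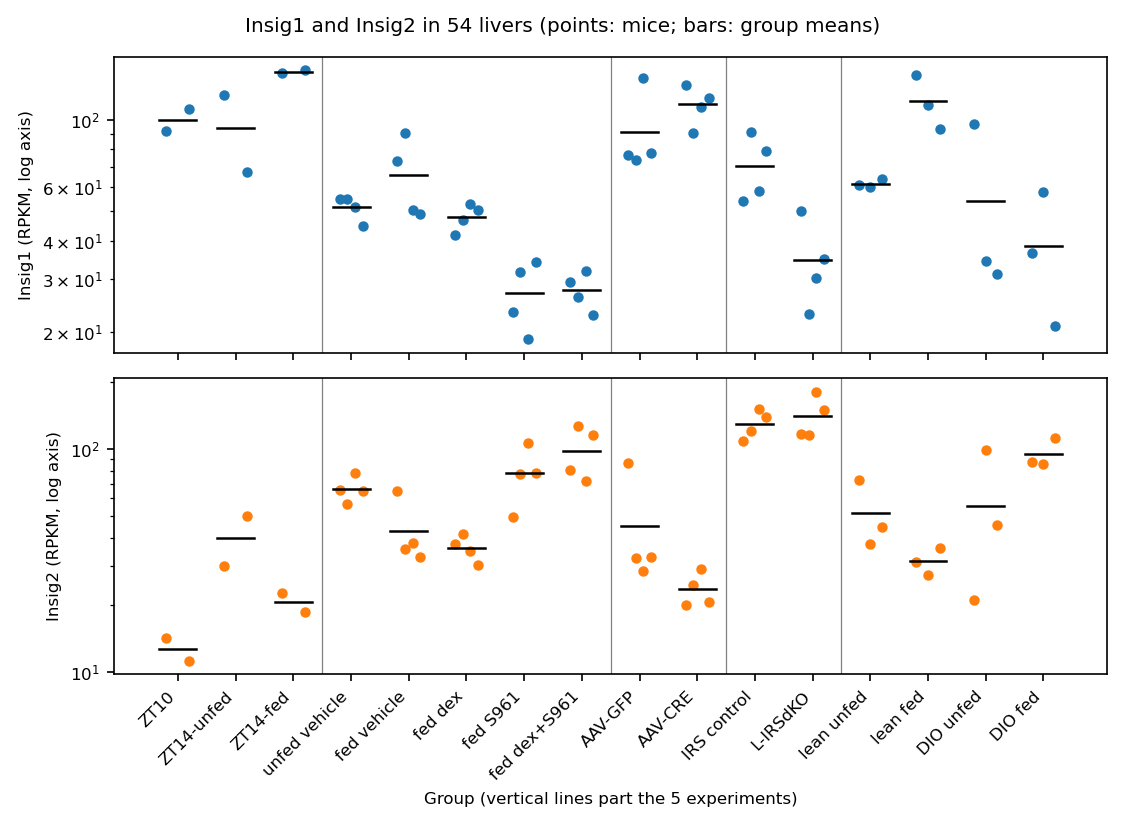
RPKM on a log axis of Insig1 (top) and Insig2 (bottom) in 54 livers, with points for mice, bars for group means, and vertical lines between the 5 experiments, whose levels are not comparable. Insig1 is low and Insig2 high in the S961 groups and in fed DIO mice, and in L-IRSdKO mice Insig1 is low while Insig2 overlaps the control.

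Lists of related genes were counted beside these. Of 8 fatty acid genes driven by SREBP1, 2 were called higher on feeding in uninjected mice, Srebf1 and Fasn (0.568% of all genes). In vehicle-injected mice 2 were (2.55%), and in lean mice 2 (16.1%). With S961 1 was lower, Srebf1, at -1.84 (0.96%), and with dex and S961 2 were lower (7.9%). AAV-CRE gave 4 higher (4.46%), Acaca, Elovl6, Me1 and Srebf1, and 1 lower (2.22%), Thrsp. L-IRSdKO gave 1 higher (9.06%) and 3 lower (8.31%). In fed DIO mice Scd1 was called lower than in lean mice, at -4.92 (0.21%). With unfed DIO replicate 1 included, DIO against lean unfed gave 1 higher (3.52%). The DIO meal then gave 1 lower (2.48%) and the interaction of diet and meal 1 lower (0.324%). Of 7 genes for SREBP processing and related factors of the endoplasmic reticulum, at most 1 was called in any comparison, and it was Erlin1 each time. The medians of the 7 stayed between -0.18 and 0.13.

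Binding sites were placed near 26 of the genes, since Hmgcs1 had no position here. The lists hold 10446 GR peaks and 8546 FOXO1 peaks from unfed liver and 83592 DNase hypersensitive sites (DHSs), all on mm9 and as positions only. A GR peak lay within 50 kb of the start of 16 of 26 genes (61.5%), against 47.6% of 11311 expressed genes, a FOXO1 peak near 14 (53.8% against 50.5%), and a DHS near all 26 (99.7% of genes). Within 20 kb a GR peak lay near 10 of 26 genes (38.5% against 29.5%), and within 100 kb near 17 (65.4% against 64.6%). Insig2 had 6 GR peaks and Sc5d 5, while Sqle, Mvd, Mvk, Idi1, Ggps1, Tm7sf2, Nsdhl, Hsd17b7, Acss2 and Mylip had 0. Genes called in more than 1 comparison were found with and without such peaks. Mvd, Sqle, Acss2 and Mylip had neither GR nor FOXO1 peaks within 50 kb. Insig1, Acat2, Fdps, Fdft1, Lss, Cyp51, Sc5d and Aacs had both, and Stard4 had a GR peak alone. FOXO1 peaks covered the start of Fdps and of Ebp and lay 49 bp from that of Aacs and 66 bp from that of Ggps1. The peak at Aacs (chr5:125955956-125956135) and the one at Ebp (chrX:7770465-7770644), both mm9 and read on the plus strand, hold GTAAACA, a forkhead core, in capitals, and are shown as the start sites of the group where such a peak and core coincide.
Aacs: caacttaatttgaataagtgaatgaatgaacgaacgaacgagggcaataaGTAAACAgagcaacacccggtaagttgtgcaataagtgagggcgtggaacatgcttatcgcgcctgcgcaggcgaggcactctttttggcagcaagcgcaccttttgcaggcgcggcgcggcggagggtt
Ebp: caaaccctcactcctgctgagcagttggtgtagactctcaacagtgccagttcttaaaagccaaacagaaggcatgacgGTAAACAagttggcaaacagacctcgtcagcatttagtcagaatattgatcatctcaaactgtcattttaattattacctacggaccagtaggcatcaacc
GTAAACA stood on either strand in 8 of the 28 FOXO1 peaks near these genes and in 18.8% of all FOXO1 peaks. ACANNNTGT, a loose form of the GR core, stood in 5 of 33 GR peaks near them and in 20.3% of all GR peaks.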

How the data were processed

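Liver RNA of 54 mice was sequenced, after removal of ribosomal RNA in the 6 NRF libraries and as poly(A) RNA in the other experiments. Per the study's methods and the submitters' processing notes, the authors aligned reads with STAR to mm9, normalized them to RPKM and tested with DESeq2. The deposited values are RPKM per RefSeq ID, and the counting tool and its use of strand are not given in the sources used here, so reads of overlapping genes on opposite strands may not be told apart. GR and FOXO1 peaks, which the authors called with HOMER and kept where found in both replicates, and DHSs, called on the combined DNase libraries, were deposited as positions. Read totals that the study lists were not used here, depth could not be recovered from RPKM, and no counting interval is given.

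Of 35707 IDs, 35407 had a symbol. Each of the 5 experiments was fitted apart with limma 3.58.1 (R 4.3.3) with an intensity trend on log2(RPKM + 0.5), leaving out genes whose mean was under 0.5 RPKM. P-values were adjusted by the BH method over all genes tested, two-sided, with thresholds of 0.01 (NRF) and 0.05. Each sample is a separate mouse. Tables and figures were made with Python 3.11.15, pandas 2.3.3, numpy 2.4.6 and matplotlib 3.10.9. The fit was tested on simulated data.

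Named genes were the members past the threshold and, in each comparison, Insig1, Insig2, Srebf2, Sqle, Hmgcs1, Idi1, Fdps, Cyp51 and Acss2, with Nr3c1, Irs1 and Irs2 in their knockouts. The members and lists were chosen with earlier results of these data known. Other genes named with values were chosen after their values were seen. Alternatives were other pseudocounts, no filter, median-ratio scaling, a replicate block, a term for library series, fits of 2 groups alone and leaving out each mouse. Lists covered SREBP processing, fatty acid genes, sterol export, and markers of hepatocytes, Kupffer cells, endothelium, stellate cells, cholangiocytes and leukocytes. Promoter windows came from RefSeq (GRCm38.p6) and peak sequences from mm9.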

Additional observations from a re-analysis of the deposited data

Results flagged for a closer look

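Of 72 groups of 4 mice examined among the named genes, 7 held a mouse far from the others by Dixon's 95% criterion, and chance flags about 1 in 20 groups. Insig1 read 137 RPKM in AAV-GFP replicate 3, against 73.6 to 77.7 RPKM in the others. Insig2 read 65.1 RPKM in fed vehicle replicate 1 (others 32.6 to 37.9 RPKM) and 86.4 RPKM in AAV-GFP replicate 1 (others 28.2 to 32.9 RPKM). Srebf2 read 13.4 RPKM in unfed vehicle replicate 4, against 9.44 to 9.75 RPKM. Sqle read 16.1 RPKM in replicate 1 with dex and S961, against 10.95 to 11.8 RPKM. In L-IRSdKO replicate 1 both Sqle, at 22.2 RPKM (others 5.35 to 8.001 RPKM), and Fdps, at 17.0 RPKM (others 7.09 to 8.29 RPKM), stood above the rest. The effect of the meal on Mylip differed between lean and DIO mice, with an interaction of 0.90 on the log2 scale (BH-adjusted p = 0.0261).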

How the results depend on the processing

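Of 2100 recomputed values of single named genes, 1934 kept their side of the threshold and, where uncalled, stayed within the spread. Of the rest, 125 lost and 34 gained a call, 7 stayed uncalled but moved by more than the spread, and 0 called values changed sign. Counts of called genes that moved are given beside the main count, and the cause was not tested. For ZT14-unfed against ZT10 (1), a pseudocount of 1, no filter, median-ratio scaling, the replicate block and 2 groups alone gave 0, and a threshold of 0.05 gave 9. That threshold gave 1 for ZT14-fed against ZT14-unfed (0) and 6 for ZT14-fed against ZT10 (0), where 2 groups alone gave 1. Fed against unfed vehicle (4) gave 1 with no filter, 7 with the replicate block, 7 with a library series term, 8 with replicates 1 to 3 alone and 2 with 2 groups alone. Dex (0) gave 4 with each of the block, the series term and replicates 1 to 3, and S961 (4) gave 7 with the series term, 1 with 2 groups alone and 6 with replicates 1 to 3. AAV-CRE (4) gave 0 with no filter and 2 with median-ratio scaling, and L-IRSdKO (19) gave 8 with no filter. The lean meal (2) gave 4 with median-ratio scaling, 8 with 2 groups alone and 6 with unfed DIO replicate 1 left out of the spread. DIO against lean gave 0 unfed (1) with 2 groups alone, and fed (0) 15 with 2 groups alone and 19 with that library left out. Diet by meal (1) gave 0 with no filter and 0 with the replicate block. GR peaks within 20 kb were near 10 genes in place of 16. Leaving out single mice gave ranges of 1 to 8 for the meal with vehicle and 0 to 2 for dex. The ranges were 4 to 7 for S961, 6 to 10 for dex with S961, 2 to 5 for AAV-CRE and 12 to 22 for L-IRSdKO. In the diet experiment they were 2 to 2 for the lean meal and 0 to 2 for the DIO meal. They were 1 to 8 for DIO against lean unfed and 0 to 3 for diet by meal. The interaction of dex and S961 and DIO against lean fed gave 0 to 0. No range is given for the NRF comparisons, where leaving out a mouse leaves a single one in its group. The share of all genes called in these fits is not given here. Same-numbered mice did not deviate together in every pair (correlations from 0.046 to 0.507 for the vehicle meal), so the numbers were not taken as pairs, and the block changed no other count by over 1.5 times. Median-ratio scaling moved the split of all called genes, higher and lower, from 41 and 86 to 46 and 28 for ZT14-unfed against ZT10, from 62 and 46 to 46 and 68 for ZT14-fed against ZT14-unfed, from 287 and 65 to 114 and 107 for the vehicle meal, from 113 and 246 to 153 and 107 for dex, from 106 and 108 to 142 and 60 for S961, from 304 and 889 to 450 and 322 for dex with S961, from 519 and 259 to 294 and 369 for AAV-CRE, from 1841 and 832 to 1169 and 1185 for the lean meal, from 403 and 194 to 211 and 249 for DIO unfed, and from 48 and 37 to 62 and 25 for diet by meal. RPKM carries no depth, groups of 2 or 3 mice limit the precision, and levels of Idi1 and Fdps rest on sequence shared with other places.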

Other observations

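Genes of sterol export, esterification and bile acid synthesis were counted as a list of 9, of which 8 were tested in the diet experiment. With S961 1 was called lower (0.96% of all genes), Cyp7a1, the rate-limiting enzyme of bile acid synthesis, by a log2 fold change of -2.22. With dex and S961 Cyp27a1 (0.40) was called higher and Cyp7a1 (-1.78) and Soat1 (-0.50) lower, where 2.7% and 7.9% of all genes were. L-IRSdKO gave 2 higher, Abcg8 (0.80) and Soat1 (0.54), where 9.06% of all genes were. It gave 2 lower, Abca1 (-0.54) and Cyp27a1 (-0.36), where 8.31% were. In lean mice the meal gave 2 higher, Cyp7a1 (1.52) and Abca1 (0.70), where 16.1% of all genes were. It gave 2 lower, the sterol exporters Abcg5 (-0.51) and Abcg8 (-0.89), where 7.28% were. AAV-CRE gave 1 higher (4.46% of all genes) and 1 lower (2.22%). Against ZT10, ZT14-unfed gave 1 lower (0.788%) and ZT14-fed 1 lower (0.807%). With unfed DIO replicate 1 included, DIO against lean unfed gave 1 higher (3.52% of all genes). The DIO meal then gave 1 lower (2.48%), as did the interaction of diet and meal (0.324%). Of the remaining marker lists, at most 2 hepatocyte markers, 1 stellate marker and 1 cholangiocyte marker were called in any comparison, and 0 leukocyte markers were. The 2 hepatocyte calls were both lower with AAV-CRE.

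The summed level of the 11 sterol arm genes was 671, 618 and 595 RPKM in lean fed mice and 277, 434 and 262 RPKM in DIO fed mice, without overlap. In unfed mice it was 636, 458 and 530 RPKM for lean and 918, 336 and 330 RPKM for DIO mice, where DIO replicate 1 was the highest of all 12 libraries.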
